A study of Mus musculus with 16 samples.

Results

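The uptake of dying cells by phagocytes was followed through 9 genes that encode receptors for apoptotic cells and the soluble proteins that bridge them to their targets. They were taken by name from the 31053 features of each deposited matrix, and all 9 were found: Axl, Mertk and Tyro3, Gas6, Pros1 and Mfge8, and Stab1, Cd36 and Lrp1. The matrices hold single-cell RNA sequencing of live CD45+ leukocytes, sorted from tumors grown under the skin of the right flank of C57BL/6J mice, with 16 libraries in 4 groups of 4. The lines were MC38, from a colorectal carcinoma, and Panc02-SIY, from a pancreatic adenocarcinoma and carrying the model antigen SIY. Tumors of each line were left untreated (NT) or received a single dose of 12 Gy (RT) under CT guidance, and were taken 24 h later. The question addressed was how radiation alters tumor leukocytes in a line whose control after radiation depends on immunity (MC38) and in one that responds poorly (Panc02-SIY). The study's mice were 6 to 8 weeks old per its methods. Each tumor model is 1 transplanted line, and the libraries of a line also share whatever was common to their preparation, so that the line and its preparation cannot be told apart. The labels name 4 replicates per group, while the methods name 3 animals, and no source ties a library to an animal. The p-values therefore measure the spread between libraries, which may in part be technical.

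Apoptotic cells expose phosphatidylserine on their outer membrane, and phagocytes clear them in a process called efferocytosis. The receptor tyrosine kinases Axl, Mertk and Tyro3 do not touch the lipid themselves but bind it through Gas6 or protein S, the product of Pros1, and Mfge8 likewise links the lipid to integrins of the phagocyte. Stabilin-1, CD36 and LRP1, the products of Stab1, Cd36 and Lrp1, are scavenger or endocytic receptors that recognize dying cells directly or through opsonins. Macrophages are the main professional phagocytes of most tissues, and conventional dendritic cells (cDCs) take up dead cells to present their antigens.

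Lrp1 and Pros1 were the members that rose after radiation in the macrophages of both tumors, and the 250 bases before the RefSeq start of each are shown for that reason. Both sequences are from the GRCm38.p6 tables of RefSeq, in which all 9 members were found, and are read 5' to 3' on the strand of the gene, with chr16:62854057-62854306 on the plus strand for Pros1 and chr10:127621149-127621398 on the minus strand for Lrp1. Capitals mark the GC box GGGCGG on either strand, and the last capitals of Pros1 hold a pair of matches that overlap.
Pros1: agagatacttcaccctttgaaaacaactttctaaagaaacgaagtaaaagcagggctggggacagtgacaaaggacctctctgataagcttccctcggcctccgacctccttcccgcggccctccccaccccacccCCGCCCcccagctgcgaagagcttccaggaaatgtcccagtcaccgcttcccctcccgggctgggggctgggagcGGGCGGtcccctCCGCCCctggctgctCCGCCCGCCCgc
Lrp1: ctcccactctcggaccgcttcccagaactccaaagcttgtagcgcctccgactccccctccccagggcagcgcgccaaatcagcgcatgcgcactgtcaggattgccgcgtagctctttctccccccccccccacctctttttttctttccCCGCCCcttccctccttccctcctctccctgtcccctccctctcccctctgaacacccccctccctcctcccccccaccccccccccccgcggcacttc
The Pros1 window held 5 matches at a GC content of 64.4%, and the Lrp1 window held 1 match at 67.2%. Gas6 and Mfge8 held 4 matches each, Mertk and Tyro3 held 3 each, Cd36 held 2, Axl held 1 and Stab1 held none, while 32.7% of 32851 mouse promoter windows of this length held at least 1. The other 5 motifs were searched on both strands, and no member had a match to the AP-1 site TGANTCA, the E-box CACGTG, the cyclic AMP element TGACGTCA, the interferon-stimulated response element or the PU.1 site GAGGAAGT. These motifs were found in 6.75%, 6.02%, 1.55%, 2.98% and 2.44% of the windows, respectively. In the GENCODE vM21 annotation of GRCm38, the gene of Lrp1 lies at chr10:127538161-127621148 on the minus strand and that of Pros1 at chr16:62854307-62929346 on the plus strand. Axl (chr7:25757273-25788705), Stab1 (chr14:31139013-31168641), Mfge8 (chr7:79133768-79149060), Cd36 (chr5:17781690-17888801) and Gas6 (chr8:13465374-13494490) lie on the minus strand, and Mertk (chr2:128698956-128802894) and Tyro3 (chr2:119797733-119818104) on the plus strand, all of them protein-coding.

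The 16 libraries held 28678 called barcodes, and many barcodes were present in more than 1 library of the same tumor. In MC38, 9843 barcodes came down to 2632 distinct ones, of which 1239 were in at least 2 libraries and 769 in all 8. In Panc02-SIY, 18835 barcodes came down to 18136, of which 187 were shared. The copies were small in MC38, with a median of 4.90% of the UMIs (unique molecular identifiers, 1 per captured RNA molecule) of the richest copy. Each barcode was therefore counted only in the library of its tumor where it had most UMIs, which kept 20768 barcodes and 174992790 of 187735117 UMIs. Values that counted every copy are given beside the results that they change or in the closing sections. The libraries kept between 1385711 and 43708746 UMIs and between 147 and 4452 barcodes. The library MC38 RT 1 was the smallest, and 57.2% of its UMIs were in copies that were dropped.

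Classes of cells were named from marker genes after clustering without the 9 genes and without 45 further genes of the pathway. The macrophage-like class had 4798 barcodes, the monocyte-like class 857 and the cDC-like class 507. All 12 macrophage markers were detected in the macrophage-like class of every group, at a summed level of 22457 to 28418 UMIs per 1000000 UMIs of the class (CPM) in MC38 and 14686 to 18870 in Panc02-SIY. Macrophage-like cells were a median of 58.5% of barcodes in MC38 NT libraries, 54.0% in MC38 RT, 15.7% in Panc02-SIY NT and 10.3% in Panc02-SIY RT. Different clusters held most UMIs of the class in the 2 tumors. In MC38, 1 cluster held 1026 barcodes and 93.5% of the macrophage UMIs. In Panc02-SIY, another held 1067 barcodes and 70.8% of the macrophage UMIs. These are called the largest macrophage clusters below, by UMIs. By barcodes, a shallow cluster was larger in Panc02-SIY, with 1683 barcodes of that tumor and a median of 1022 UMIs. The depth differed too, with a median of 21770 and 20025 UMIs per macrophage-like barcode in MC38 NT and RT against 1989.5 and 3207.5 in Panc02-SIY NT and RT. Each contrast between tumors therefore sets cells of different clusters and depths side by side.

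Across the classes, the genes fell into those read almost only in macrophages and those read in several kinds of cell. The map of median levels by class shows this division, which is given as a description with no test. Levels are CPM of a class within a library, counted at the 3' end of transcripts, so they compare 1 gene between cells and not different genes. Axl had a median of 259 CPM in MC38 macrophage-like cells and 355 CPM in those of Panc02-SIY. Its median was 179 CPM in MC38 cDC-like cells, 13.4 CPM in Panc02-SIY cDC-like cells, and 15.0 and 12.2 CPM in the T cells of MC38 and Panc02-SIY, a lineage not known for Axl. Mertk was narrower, at 37.1 and 62.2 CPM in the macrophage-like cells of MC38 and Panc02-SIY, 10.7 CPM in Panc02-SIY monocyte-like cells, and at most 1.87 CPM in each other class. Stab1 was at 123 and 22.4 CPM in macrophage-like cells, and at 75.3 CPM in the single MC38 library with at least 10 monocyte-like barcodes.

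**Figure D1:**
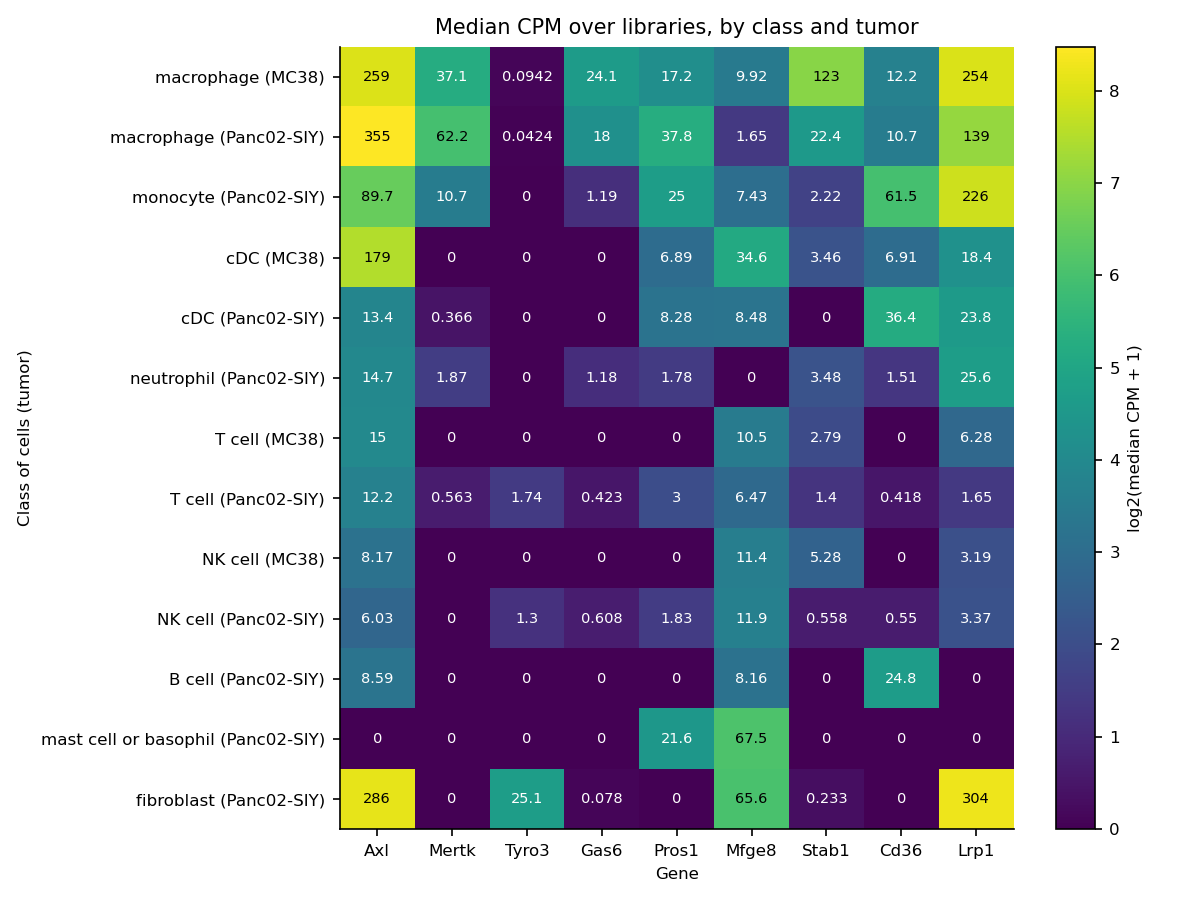
Median CPM over libraries for each of the 9 genes (horizontal) in each class of cells and tumor (vertical), for classes with at least 10 barcodes in 2 or more libraries of a tumor. Axl and Mertk are highest in macrophage-like and, for Axl, fibroblast-marker cells, Mfge8 is high in mast cells or basophils (67.5 CPM) and fibroblast-marker cells (65.6 CPM), and Tyro3 stands out only in fibroblast-marker cells (25.1 CPM).

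Lrp1, a large endocytic receptor that also clears proteases and lipoproteins, was at 254 and 139 CPM in MC38 and Panc02-SIY macrophage-like cells, 226 CPM in Panc02-SIY monocyte-like cells, and 304 CPM in the fibroblast-marker cells of Panc02-SIY. Cd36, a receptor for oxidized lipids and long-chain fatty acids, was instead highest in monocyte-like cells, at 61.5 CPM in Panc02-SIY, against 12.2 and 10.7 CPM in the macrophage-like cells of MC38 and Panc02-SIY. The bridges had separate patterns. Gas6 was at 24.1 and 17.98 CPM in the macrophage-like cells of MC38 and Panc02-SIY and at most 1.19 CPM in each other named class. Pros1 was at 17.2 and 37.8 CPM in those cells, 25.04 CPM in Panc02-SIY monocyte-like cells and 21.6 CPM in Panc02-SIY mast cells or basophils. Mfge8 was highest outside macrophages, at 67.5 CPM in mast cells or basophils. Tyro3 was at or below 0.97 CPM in the macrophage-like cells of every library, and at 25.1 CPM in fibroblast-marker cells.

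Radiation was followed by a rise of Lrp1 and Pros1 in the macrophage-like cells of both tumors, and of Stab1 in those of Panc02-SIY. In MC38, 2 of the 8 members that passed the filter on low counts rose and none fell, where 13.2% of all genes tested were called (7.42% higher and 5.75% lower), and the median log2 fold change was 0.33 over the members and 0.03 over all genes. In Panc02-SIY, 3 of 8 rose and none fell, where 8.23% of all genes were called (4.03% higher and 4.2% lower), and the medians were 0.91 and 0.03. Tyro3 failed the filter. The members that passed include those whose level in 1 group carried them through it. A gene was called when the edgeR quasi-likelihood test over all genes gave a Benjamini-Hochberg adjusted p below 0.1 and the fold change was above 1.3.

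In MC38, Lrp1 was at 214, 201, 194 and 225 CPM in the NT libraries 1 to 4 and at 364, 317, 291 and 284 CPM in the RT libraries. All 4 RT libraries were above all 4 NT libraries, with means of 208 ± 13.7 and 314 ± 36.4 CPM (SD, n = 4). The log2 fold change was 0.71 (SE 0.10, edgeR adjusted p = 0.00012). When every copy of a barcode was counted it fell to 0.45 (edgeR adjusted p = 0.00458). In Panc02-SIY, Lrp1 was at 105, 98.7, 99.1 and 89.6 CPM in NT and 214, 235, 214 and 172 CPM in RT. The groups again did not overlap, with means of 98.2 ± 6.44 and 209 ± 26.4 CPM (SD, n = 4), and the log2 fold change was 1.12 (SE 0.12, edgeR adjusted p = 5.84e-06). The rise stayed called without any 1 library in both tumors, and within the largest macrophage cluster of each tumor, chosen after seeing the data, it was 0.71 in MC38 (edgeR adjusted p = 0.00234) and 0.85 in Panc02-SIY (edgeR adjusted p = 0.0198).

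Pros1, which encodes the anticoagulant protein S and a ligand of Mertk and Tyro3, moved by a like amount in both tumors. It was at 12.4, 14.1, 13.8 and 14.1 CPM in MC38 NT and 20.3, 27.7, 25.7 and 20.2 CPM in MC38 RT, for a log2 change of 0.91 (SE 0.15, edgeR adjusted p = 0.00051). In Panc02-SIY it was at 16.2, 24.96, 34.8 and 24.6 CPM in NT and 40.7, 42.7, 53.5 and 50.7 CPM in RT, for a log2 change of 0.88 (SE 0.16, edgeR adjusted p = 0.00227). RT and NT libraries did not overlap in either tumor. Both calls held without any 1 library, with every copy of a barcode counted, and within the largest macrophage cluster of each tumor, at 0.91 and 0.85. Pros1 was also higher in RT than in NT libraries without overlap in some other classes of Panc02-SIY, as given below, so it was not particular to macrophages.

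Stab1, a scavenger receptor found on tissue macrophages and sinusoidal endothelium, rose in Panc02-SIY from 24.3, 15.1, 15.4 and 12.6 CPM in NT to 29.97, 45.5, 45.8 and 20.6 CPM in RT. The groups overlapped, as the library RT 4 was below NT 1, which rested on 6 UMIs of Stab1. They did not overlap with clusters made at a finer resolution of 2 (NT 10.3 to 16.1 CPM, RT 20.7 to 49.3 CPM). In the main fit the log2 fold change was 1.24 (SE 0.23, edgeR adjusted p = 0.0034). Within the largest macrophage cluster of Panc02-SIY the value was 1.05 and was no longer called (edgeR adjusted p = 0.102). In MC38 it was at 132, 109, 123 and 107 CPM in NT and 126, 109, 123 and 135 CPM in RT, and the groups overlapped (log2 fold change 0.19, SE 0.16, edgeR adjusted p = 0.51). The difference between the 2 radiation effects, tested as an interaction, was -1.05 on the log2 scale for Stab1 (SE 0.28, MC38 minus Panc02-SIY) and was not called (edgeR adjusted p = 0.232). Without the library Panc02-SIY RT 4 it was -1.42 and was called (edgeR adjusted p = 0.00483). The same difference was -0.41 for Lrp1 (edgeR adjusted p = 0.464), and none of the 8 members was called, where 0.0387% of all genes were. With every copy of a barcode counted, 1 member was called.

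**Figure D2:**
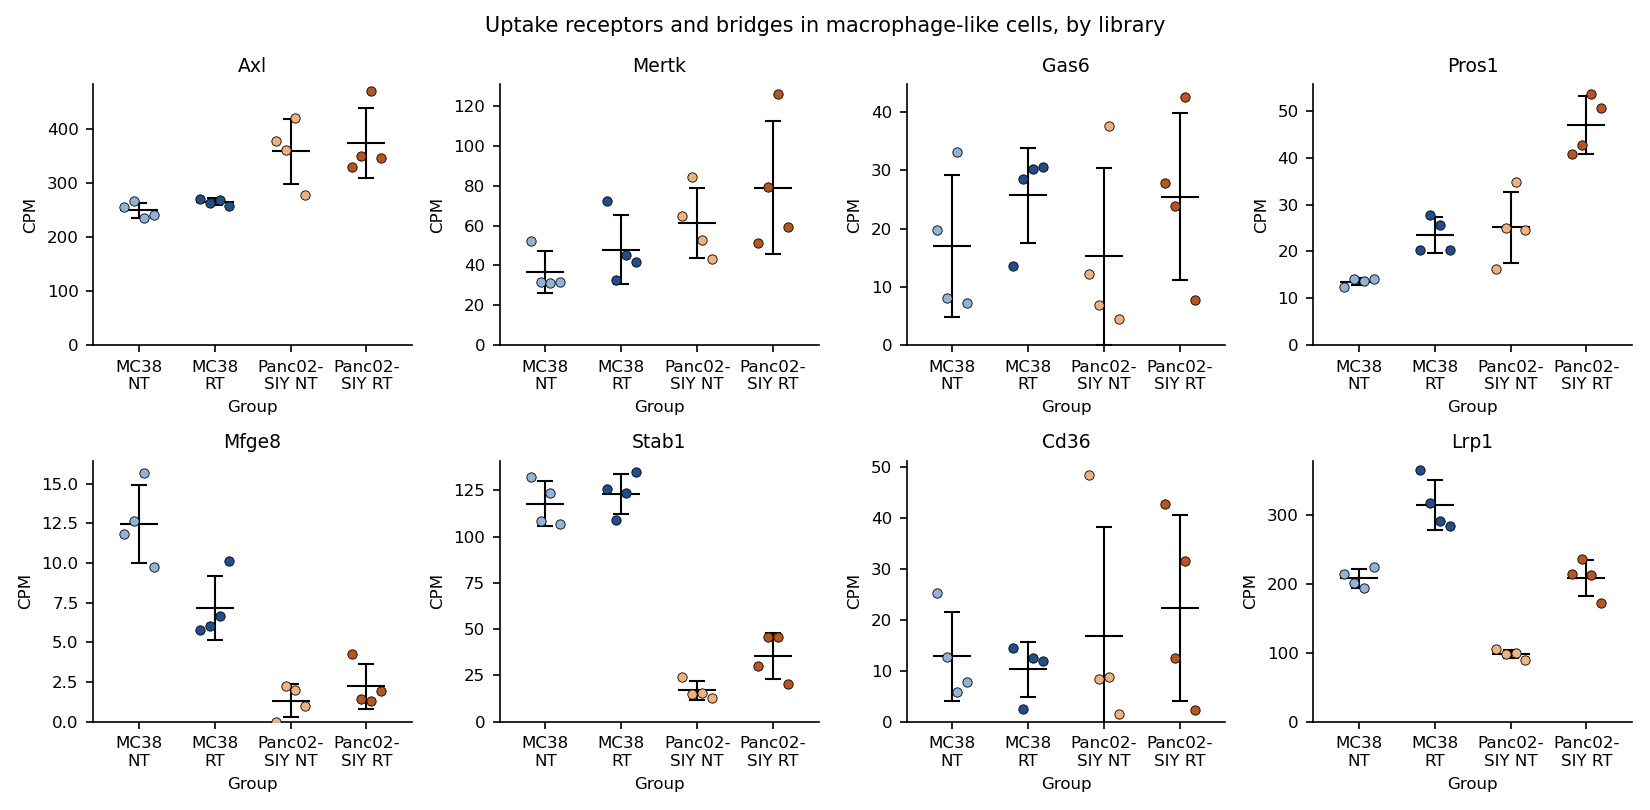
CPM of the 8 members tested in macrophage-like cells (vertical, 1 panel per gene), with 1 point for each library of the 4 groups (horizontal) and a line at the group mean with its SD. Lrp1 and Pros1 in RT lie above NT in both tumors without overlap, whereas Axl, Mertk, Gas6 and Cd36 overlap between NT and RT.

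Markers of monocytes moved in the same direction as these genes within the macrophage-like class. The summed level of the 8 monocyte markers, all of them detected in each group, was 1498 to 2447 CPM in MC38 NT and 2476 to 3299 CPM in MC38 RT, and 98.0 to 207 CPM in Panc02-SIY NT and 195 to 493 CPM in Panc02-SIY RT. With clusters at resolution 2, a macrophage-like cluster had 172 barcodes in MC38 NT and 56 in MC38 RT. Another, with 6 of the 8 monocyte markers raised, had 376 and 420. The part of monocytes and of this shift in the rises of Lrp1 and Pros1 was not tested. This holds also for the values within the largest macrophage clusters. In Panc02-SIY monocyte-like cells, Lrp1 was at 199 to 290.1 CPM, above the 89.6 to 105 CPM of NT macrophage-like cells, and Pros1 was higher in all RT libraries (29.8 to 38.2 CPM) than in all NT libraries (12.8 to 20.2 CPM), although neither gene was called there after radiation.

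The share of macrophage-like barcodes with at least 1 UMI was compared as well. Barcodes were thinned to 1000 UMIs to lessen the difference in depth. Thinning cannot level barcodes that held fewer UMIs, and the shallow macrophage cluster of Panc02-SIY had a median of 1022. The share with Lrp1 was then 21.2% in MC38 NT and 30.6% in MC38 RT, and 5.90% and 14.9% in Panc02-SIY NT and RT, whereas in T cells it was at most 1.47%. Without thinning the 4 shares were 83.4%, 83.1%, 21.0% and 39.0%, so that the shift in MC38 was seen only after thinning. For Pros1 the thinned shares were 1.39%, 2.91%, 1.79% and 5.38% in the same order. The smallest p that an exact two-sided permutation test of 4 against 4 libraries can give is 0.0286, which became 0.129 after adjustment over 36 tests, so none of these shares passed the threshold of 0.1.

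The receptor tyrosine kinases were not called in either radiation contrast in macrophage-like cells. Axl was at 254, 266, 235 and 240.2 CPM in MC38 NT and 271, 263, 269 and 256 CPM in MC38 RT, with means of 249 ± 14.3 and 265 ± 6.48 CPM (SD, n = 4). In Panc02-SIY its means were 358 ± 59.9 and 373 ± 64.7 CPM (SD, n = 4), with NT libraries from 276 to 419 CPM and RT libraries from 329.7 to 469.6 CPM. The NT and RT libraries overlapped in both tumors. Mertk, which couples recognition of the dying cell to engulfment, was at 52.2, 31.6, 31.1 and 31.6 CPM in MC38 NT and 72.5, 32.5, 45.2 and 41.7 CPM in MC38 RT, for a log2 change of 0.45 (SE 0.29, edgeR adjusted p = 0.39). In Panc02-SIY it was at 64.8, 84.3, 52.9 and 43.4 CPM in NT and 51.4, 79.1, 126 and 59.5 CPM in RT, for a log2 change of 0.44 (SE 0.31, edgeR adjusted p = 0.473). The libraries overlapped in both tumors.

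Of the remaining bridges and receptors, Gas6 and Cd36 varied more between libraries of a group than between groups. Gas6, the ligand of Axl, was at 7.26 to 33.2 CPM in MC38 NT, 13.5 to 30.5 CPM in MC38 RT, 4.41 to 37.5 CPM in Panc02-SIY NT and 7.76 to 42.6 CPM in Panc02-SIY RT. Cd36 spanned 5.84 to 25.3, 2.41 to 14.5, 1.44 to 48.6 and 2.32 to 42.8 CPM in the same groups. Its spread in Panc02-SIY depended on the clustering. With clusters at the finer resolution of 2, Cd36 was at 1.46 to 5.48 CPM in Panc02-SIY NT and 2.33 to 16.1 CPM in RT. Mfge8 was at 11.8, 12.7, 15.6 and 9.72 CPM in MC38 NT and 5.80, 6.02, 6.68 and 10.1 CPM in MC38 RT, with a log2 fold change of -0.56 (SE 0.25) that was not called (edgeR adjusted p = 0.16). The overlap came from 1 library, MC38 RT 4, without which the value was -0.86 and was called (edgeR adjusted p = 0.0668).

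The macrophages of the 2 tumors differed in 5 of the 8 members before radiation and in 4 of 8 after it, where 48.1% (24.4% higher and 23.7% lower in MC38) and 51.1% (25.9% and 25.2%) of all genes were called. A share of that size is near the background of these contrasts. Stab1 and Mfge8 were much higher in MC38, Lrp1 was higher in MC38, and Pros1 was higher in Panc02-SIY, and these 4 were called both in NT and in RT. Axl was higher in Panc02-SIY in NT at a fold just past the threshold. The median log2 fold change of the members was 0.94 in NT and 0.16 in RT, against 0.008 and 0.01 over all genes.

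Stab1 was at 107 to 132 CPM in MC38 NT against 12.6 to 24.3 CPM in Panc02-SIY NT, for a log2 change of 3.17 (SE 0.21, edgeR adjusted p = 1.47e-10). After radiation it was 2.12 (SE 0.19, edgeR adjusted p = 1.61e-08). Mfge8 was at 9.72 to 15.6 CPM in MC38 NT and 0 to 2.27 CPM in Panc02-SIY NT, with log2 fold changes of 3.27 in NT (SE 0.35, edgeR adjusted p = 1.05e-07) and 2.27 in RT (SE 0.37, edgeR adjusted p = 3.03e-05). The Panc02-SIY levels were close to 0, so the size of this fold depends on few UMIs. For Lrp1 the values were 1.24 in NT (SE 0.11, edgeR adjusted p = 9.9e-09) and 0.83 in RT (SE 0.11, edgeR adjusted p = 1.57e-06). None of these 3 genes overlapped between tumors within NT or within RT, which is a description, as the share of all genes without overlap is not given.

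**Figure D3:**
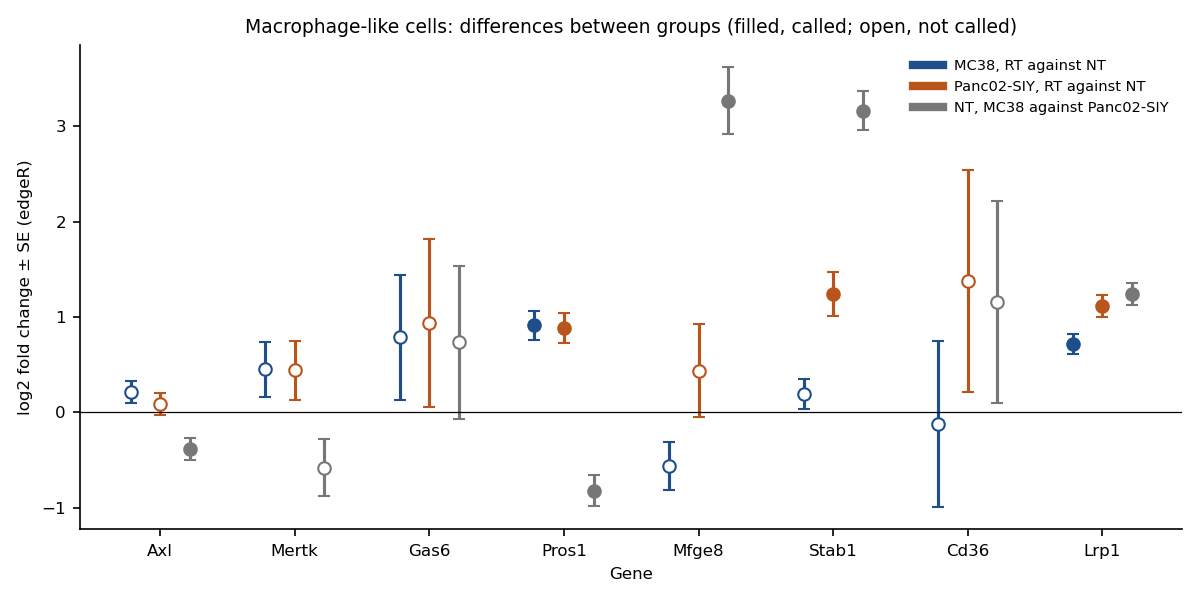
Log2 fold changes with SE (vertical, edgeR) of the 8 members tested in macrophage-like cells (horizontal) for radiation in MC38 (blue), radiation in Panc02-SIY (orange) and MC38 against Panc02-SIY in NT (grey), filled where called and open where not. The radiation values of Lrp1 (0.71 and 1.12) and Pros1 (0.91 and 0.88) lie above 0 in both tumors, and Stab1 and Mfge8 have the largest contrasts between tumors among these 8 (3.17 and 3.27).

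Pros1 went the other way, with a log2 fold change of MC38 over Panc02-SIY of -0.82 in NT (SE 0.16, edgeR adjusted p = 0.000195) and -0.79 in RT (SE 0.15, edgeR adjusted p = 0.000167). For Axl it was -0.38 in NT (SE 0.12, edgeR adjusted p = 0.00895), and -0.26 in RT, where the fold was below 1.3 (SE 0.12, edgeR adjusted p = 0.0662). The NT call of Axl was lost when any 1 of 5 libraries was left out, namely MC38 NT 3 or 4 or Panc02-SIY NT 1, 2 or 3, at values of -0.37 to -0.32, and also with resolution 2 (-0.36) or with the members kept among the clustering genes (-0.33). Mertk was not called, at -0.58 in NT (SE 0.30, edgeR adjusted p = 0.125) and -0.57 in RT (SE 0.30, edgeR adjusted p = 0.13). It was called as higher in Panc02-SIY under 8 of 14 alternatives in NT and 7 of 14 in RT, and in NT also without MC38 NT 1 (-0.78, edgeR adjusted p = 0.0475) or Panc02-SIY NT 4 (-0.80, edgeR adjusted p = 0.062). Between the largest macrophage clusters, which were chosen after seeing the data, Mertk was called as higher in Panc02-SIY, at -1.01 in NT (edgeR adjusted p = 0.0153) and -0.94 in RT. Levels of other cells in the class differed between the tumors as well. The summed T cell markers stood at 17 to 68 CPM in MC38 macrophage-like cells and 263 to 623 CPM in those of Panc02-SIY, while fibroblast markers stood at 24.1 to 41.1 and 4.05 to 19.4 CPM, and the part of either in these differences was not tested.

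In cDC-like cells, Axl was the member that separated the tumors. The class holds cells with markers of type 1 cDCs (DC1), of type 2 cDCs (DC2) and of mature regulatory DCs (mregDC), and was large enough in 3 NT and 2 RT libraries of MC38 and in all 8 of Panc02-SIY. Axl was at 260.1, 181 and 166 CPM in the MC38 NT libraries 1, 3 and 4 and at 2.79, 21.2, 12.9 and 9.51 CPM in the Panc02-SIY NT libraries. It was at 179 and 156 CPM in the MC38 RT libraries 3 and 4 and at 35.0, 4.48, 69.9 and 13.9 CPM in the Panc02-SIY RT libraries. Every MC38 library lay above every Panc02-SIY library. The log2 fold change was 4.14 in NT (SE 0.64, edgeR adjusted p = 0.00204) and 2.65 in RT (SE 0.61, edgeR adjusted p = 0.021). The NT call held without any 1 library, whereas the RT call was lost without MC38 RT 3 (2.56, edgeR adjusted p = 0.154) or RT 4 (2.73, edgeR adjusted p = 0.102), either of which leaves a single MC38 library that is assumed to vary like the others. T cells of Panc02-SIY had 11.2 to 16.2 CPM of Axl, within the span of the Panc02-SIY cDC-like libraries.

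Macrophage RNA in these cells was followed with Mertk and the macrophage markers. Over the 105 MC38 cDC-like barcodes and 2059833 UMIs there were 358 UMIs of Axl, in 70 barcodes, and none of Mertk, which allows a level of up to 1.46 CPM by counting error alone. In MC38 macrophage-like cells there were 6.52 UMIs of Axl for each of Mertk. The 402 Panc02-SIY cDC-like barcodes had 138 UMIs of Axl and 6 of Mertk. The summed macrophage markers were nonetheless present in MC38 cDC-like cells, at 863 to 2047 CPM in NT and 1176 to 1691 CPM in RT, against 324 to 564 CPM and 254 to 430 CPM in Panc02-SIY. Subsets were taken from a finer clustering at resolution 2, whose DC1-like, DC2-like and mregDC-like clusters held 577 barcodes, among them all 507 of the cDC-like class. In these clusters, Axl pooled over libraries was 199 CPM in MC38 DC2-like cells (95% exact Poisson interval 178 to 223, 68 barcodes) and 48.7 CPM in those of Panc02-SIY (40.3 to 58.3, 179 barcodes). It was 129 CPM (88.1 to 182, 17 barcodes) and 5.12 CPM (2.87 to 8.45, 181 barcodes) in DC1-like cells, and 71.1 CPM (43.4 to 109.8, 26 barcodes) and 8.74 CPM (3.99 to 16.6, 106 barcodes) in mregDC-like cells. These pooled values have no replicate check, and their intervals cover counting error only.

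Of the 9 members, Axl, Mfge8, Cd36 and Lrp1 passed the filter in cDC-like cells. In NT, 2 of the 4 were higher in MC38, where 14.8% of all genes were called (8.13% higher and 6.68% lower), and in RT 1 of 4, where 12.3% were (7.12% and 5.15%). The other call in NT was Mfge8, at 21.2, 72.5 and 34.6 CPM in MC38 and 22.3, 3.86, 9.19 and 4.39 CPM in Panc02-SIY, which overlapped by 1 library. Its log2 fold change was 2.57 (SE 0.82, edgeR adjusted p = 0.0689), and the call was lost without MC38 NT 3 (1.85, edgeR adjusted p = 0.332) or NT 4 (2.74), or Panc02-SIY NT 2 (2.37), 3 (2.60) or 4 (2.19). In RT it was 1.71 (edgeR adjusted p = 0.212). Radiation changed none of the 4 by this test in either tumor, where 0.0449% of genes were called in MC38 and 0.345% in Panc02-SIY, and the difference between the radiation effects was called for 0 of 4 and for 0% of all genes, of which 364 of 6676 had an unadjusted p below 0.05. Axl in Panc02-SIY RT against NT stood at 1.33 (SE 0.67, edgeR adjusted p = 0.503), with libraries of the groups overlapping. With 54 and 51 barcodes in MC38 NT and RT, 158 and 244 in Panc02-SIY, and an SE of this size, changes of 2-fold and more could be missed. In simulated counts for MC38 RT against NT in these cells, 5% of 2-fold and 68.4% of 4-fold changes were recovered. The simulation used a set dispersion that was not estimated from these cells.

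With NT and RT pooled, Cd36 was highest in the DC1-like cells of both tumors, on 24 UMIs of 17 barcodes in MC38. In the same finer clusters, pooled over libraries, it was 96.6 CPM in MC38 DC1-like cells (95% exact Poisson interval 61.9 to 144) and 96.0 CPM in those of Panc02-SIY (85.1 to 108), against 0.647 and 7.42 CPM in DC2-like cells and 3.56 and 4.85 CPM in mregDC-like cells. Lrp1 was instead read in DC2-like cells, at 38.8 CPM in MC38 and 48.7 CPM in Panc02-SIY, against 4.02 and 3.76 CPM in DC1-like cells. Mfge8, whose protein binds phosphatidylserine, was at 57.0 CPM in the DC2-like cells of MC38 and 9.48 CPM in those of Panc02-SIY, and at 21.3 and 43.7 CPM in mregDC-like cells. Differences between subsets are a description, since the subsets were made from the same cells. By library, Cd36 in the cDC-like class was at 6.91 to 29.4 CPM in MC38 NT and 0 to 2.30 CPM in MC38 RT. In Panc02-SIY it was at 16.8 to 127 CPM in NT and 0 to 38.3 CPM in RT, and it was not called after radiation in either tumor. In the finer clusters, the make-up of the class in Panc02-SIY moved too. The DC1-like cluster had 119 barcodes in NT and 62 in RT, and the DC2-like cluster had 47 and 132. The part of this shift in the values of Cd36, Axl and other genes in cDC-like cells was not tested.

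**Figure D4:**
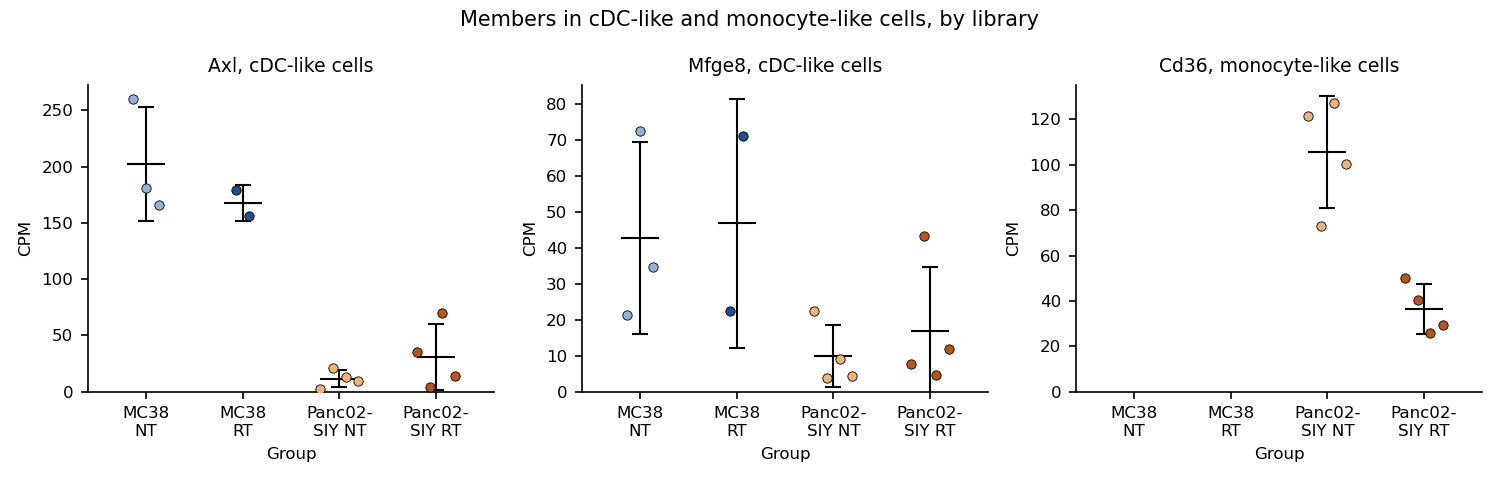
CPM (vertical) of Axl and Mfge8 in cDC-like cells and of Cd36 in monocyte-like cells, with 1 point per library of at least 10 barcodes in each group (horizontal) that had 2 or more such libraries, and the group mean with its SD. Axl in cDC-like cells separates MC38 (156 to 260.1 CPM) from Panc02-SIY (2.79 to 69.9 CPM), and Cd36 in Panc02-SIY monocyte-like cells is lower in all RT libraries (25.7 to 50.04 CPM) than in all NT libraries (72.9 to 127 CPM).

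Monocyte-like cells could be compared only in Panc02-SIY, where they were a median of 2.11% of NT and 6.83% of RT barcodes. Of the 4 members that passed the filter there, Cd36 fell after radiation, and 0.393% of all genes were called (0.211% higher and 0.181% lower). It was at 121, 72.9, 127 and 101 CPM in NT and 50.04, 40.6, 25.7 and 29.2 CPM in RT. All RT libraries were below all NT libraries, and the log2 fold change was -1.66 (SE 0.23, edgeR adjusted p = 0.00501). The make-up of the class moved as well. With clusters at resolution 2, a monocyte-like cluster had 80 barcodes in Panc02-SIY NT and 412 in RT, and another had 118 and 241. The part of this shift in the fall of Cd36 was not tested. Pros1 was at 20.2, 18.9, 18.8 and 12.8 CPM in NT and 38.2, 29.8, 30.3 and 33.1 CPM in RT, and Lrp1 at 290.1, 240.5, 258 and 250.3 CPM in NT and 212, 207, 209 and 199 CPM in RT. Neither overlapped between the groups, but neither was called, at 0.85 for Pros1 (SE 0.27, edgeR adjusted p = 0.242) and -0.36 for Lrp1 (SE 0.13, edgeR adjusted p = 0.345). Axl overlapped, at 39.3 to 154 CPM in NT and 77.7 to 152 CPM in RT (log2 fold change 0.46, SE 0.36, edgeR adjusted p = 0.733).

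Over all CD45+ cells, where a lower count can mean fewer cells of a type or less RNA per cell and these cannot be told apart, most members were higher in MC38. In NT, 7 of the 9 members were higher and 1 was lower in MC38, where 61.1% of all genes were called (29.1% higher and 32% lower). In RT, 6 were higher and 1 was lower, where 58.5% were called (29.9% and 28.6%). Axl was at 219 to 231 CPM in MC38 NT and 34.2 to 123 CPM in Panc02-SIY NT, with a log2 fold change of 1.64 in NT and 1.69 in RT. In macrophage-like cells, its values of -0.38 and -0.26 had the opposite sign, as the plot that sets all cells beside macrophages shows. Mertk was likewise higher in MC38 over all cells, at 1.79 in NT and 1.75 in RT. Gas6 stood at 2.95 and 2.81, Stab1 at 5.06 and 4.40, Lrp1 at 2.12 and 2.19, and Pros1 at 1.13 and 0.85, and each was called in both. Pros1 thus also changed sign between all cells and macrophage-like cells. The share of macrophage-like barcodes was also higher in MC38, as given with the classes, and its part in these values was not tested.

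**Figure D5:**
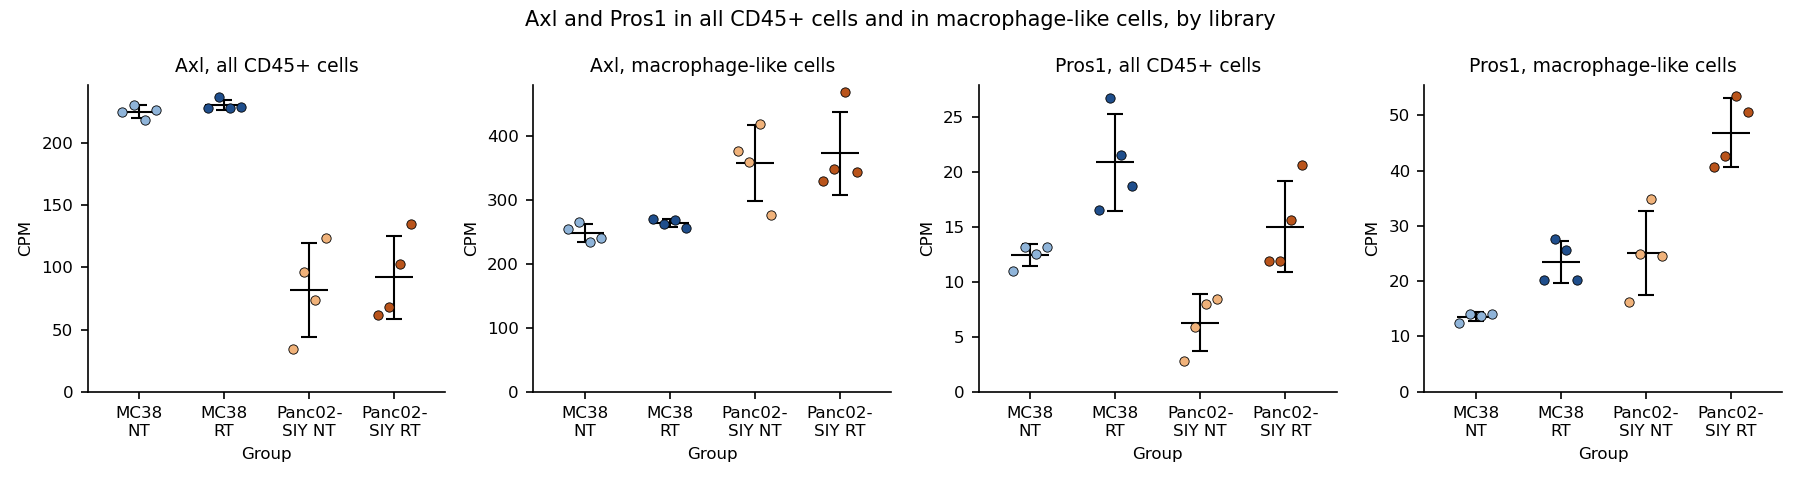
CPM (vertical) of Axl and Pros1 in all CD45+ cells and in macrophage-like cells, with 1 point per library in the 4 groups (horizontal) and the group mean with its SD. Axl in all cells is higher in MC38 (219 to 237 CPM) than in Panc02-SIY (34.2 to 135 CPM), whereas in macrophage-like cells it is 235 to 271 CPM in MC38 and 276 to 469.6 CPM in Panc02-SIY.

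Tyro3 was the member that was lower in MC38, at -3.01 in NT and -2.27 in RT over all cells. Its level was low, at 0 to 2.16 CPM in MC38 and 1.34 to 4.28 CPM in Panc02-SIY. Its highest level by named class was in the fibroblast-marker cells, a cluster of 234 barcodes, all from Panc02-SIY. Without that cluster, left out after seeing the data, the values were -1.84 in NT (edgeR adjusted p = 0.0191) and -1.52 in RT (edgeR adjusted p = 0.0682). Mfge8 was called in NT only (0.51, edgeR adjusted p = 0.0627), and the call was lost without MC38 NT 3 (0.25), Panc02-SIY NT 2 (0.46) or Panc02-SIY NT 3 (0.44). After radiation, Pros1 and Lrp1 rose over all cells in both tumors and Stab1 in Panc02-SIY, where 11.7% of all genes were called in MC38 (7.24% higher and 4.45% lower) and 14.7% in Panc02-SIY (7.69% and 6.99%). In MC38 the values were 0.86 for Pros1 (edgeR adjusted p = 0.066) and 0.65 for Lrp1 (edgeR adjusted p = 0.0668). Both calls were lost when every copy of a barcode was counted, Pros1 also without any of MC38 NT 1 to 4 and RT 2 and 3 (0.72 to 0.94) and Lrp1 without any of NT 1 to 3 and RT 1 to 3 (0.60 to 0.72). In Panc02-SIY they were 1.14 for Pros1 (edgeR adjusted p = 0.00868), 0.80 for Stab1 (edgeR adjusted p = 0.00969) and 0.58 for Lrp1 (edgeR adjusted p = 0.0777). Lrp1 there was lost without NT 2 (0.60), NT 3 (0.54) or RT 4 (0.50), and was 1.05 without the fibroblast-marker cluster. The difference of the radiation effects was called for none of the 9, where 0.345% of all genes were.

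The wider pathway was followed with a list of 45 genes, of which 34 were tested in macrophage-like cells. After radiation, 3 rose and 1 fell in MC38 (11.8% of those tested, against 13.2% of all genes), and 3 rose and none fell in Panc02-SIY (8.82%, against 8.23%). The shares were thus near the background. Thbs1, which encodes thrombospondin-1, a bridge between dying cells and CD36, rose in both: it was at 117, 110, 162 and 162 CPM in MC38 NT and 333, 267, 269 and 293 CPM in MC38 RT, for a log2 change of 1.19 (SE 0.23, edgeR adjusted p = 0.0038). In Panc02-SIY it was at 0, 14.4, 24.8 and 10.2 CPM in NT and 38.5, 81.2, 51.0 and 49.0 CPM in RT, a log2 fold change of 2.04, and RT and NT did not overlap in either tumor. The cholesterol exporter Abcg1 rose by 0.59 and 0.65 and the lysosomal membrane protein gene Lamp2 by 0.38 and 0.41 on the log2 scale in MC38 and Panc02-SIY. Scarb1, a lipoprotein and phosphatidylserine receptor, fell by 0.45 in MC38.

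Between tumors, 10 genes of the list were higher and 11 lower in MC38 macrophage-like cells in NT (61.8% of 34, against 48.1% of all genes), and 8 and 11 in RT (55.9%, against 51.1%). The median log2 fold change of the list in NT was -0.07, against 0.008 over all genes. Higher in MC38 NT were Anxa1, a phosphatidylserine-binding annexin (4.86), Thbs1 (3.46) and the cholesterol exporter Abca1 (2.41). Lower were the lipid-sensing nuclear receptor genes Pparg (-4.08) and Nr1h3 (-2.75) and their partner Rxra (-2.42). All 7 lipid handling genes that were tested differed, 2 of them higher and 5 lower in MC38. Of the other groups, 2 of 3 bridges were called, both higher, as were 3 of 9 phagosome genes. Among the other receptors 1 was higher and 2 were lower of 5, and among the engulfment genes 1 and 2 of 6. Of the don't-eat-me genes, Sirpa, the receptor of CD47, was lower in MC38 (-1.22). Between the tumors in RT, the called genes furthest above Panc02-SIY in MC38 were Anxa1 (3.03), Thbs1 (2.61) and Lamp2 (0.87). Furthest below it were Pparg (-4.05), S1pr1 (-2.43) and Nr1h3 (-2.39). S1pr1 was at 0.802 to 1.83 CPM in MC38 RT, so its fold depends on few UMIs. In cDC-like cells 25 genes of the list were tested. In NT, Sirpa (1.22) and Lamp2 (0.78) were higher and Elmo2 (-1.15) was lower in MC38, and in RT Cx3cr1 (-2.34) and Abcg1 (-1.02) were lower. As a share of the 25, these calls were not above the shares of all genes given above with the members in cDC-like cells. No gene of the list was called after radiation in cDC-like cells of either tumor, nor among the 31 tested in Panc02-SIY monocyte-like cells. In Panc02-SIY cDC-like cells, Lamp2 was nonetheless at 92.2 to 141 CPM in NT and 182 to 264 CPM in RT. Sirpa was at 28.5 to 84.5 CPM in NT and 91.3 to 141 CPM in RT there. The libraries of Elmo2, Cx3cr1 and Abcg1 overlapped between NT and RT.

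Genes whose level was most like that of each member were found over the 34 clusters with at least 50 barcodes, among 7798 genes that reached 50 CPM in some cluster. The measure was Pearson's r of log2(CPM + 10), and since clusters share libraries and differ in depth it is a description. For Axl these were Mmp14 (0.959), Plxnb2 (0.943) and Lrp1 (0.882), and for Lrp1 they were Mmp14 (0.909), Plxnb2 (0.907) and Dock4 (0.900). Mertk was most like Mrc1 (0.855), Siglec1 (0.808) and Emilin1 (0.805), and Stab1 most like Cfb (0.882) and Adap2os (0.872). Cd36 was most like Kmo (0.853), Clec10a (0.790) and Tppp3 (0.766). For the bridges, Gas6 was most like Cebpa (0.817), Ch25h (0.811) and Tmem119 (0.804), Pros1 like Itga9 (0.756), Emilin1 (0.723) and Tmem51 (0.716), and Mfge8 like Rad51b (0.771), Oaf (0.700) and Tubb2b (0.679). Tyro3, whose highest level in any of these clusters was 31.9 CPM, was most like Plekha4 (0.932), Plxna2 (0.912) and Ereg (0.911). Axl (357 CPM) and Lrp1 (783 CPM) were highest in a macrophage-like cluster of 174 barcodes, 171 of them from MC38. Its barcodes had a median of 14.8% mitochondrial UMIs. Mertk (105 CPM) and Stab1 (392 CPM) were highest in another, of 185 MC38 barcodes with a median of 17.8%. The part of these clusters in the values of r was not tested.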

How the data were processed

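Live CD45+ cells of 16 tumor libraries were profiled with the 10x 3' version 3 chemistry. The deposited values are raw UMI counts per barcode and gene, made by the authors with Cell Ranger 3.1.0 after bcl2fastq 2.20.0 against mm10, per the submitters' processing notes, and the filtered matrix of each library was used with no scaling. Alignment, UMI counting and the calling of cells are the authors' work. No cell filter was added, and doublets were removed only in an alternative.

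Barcodes found in several libraries of a tumor were counted once, in the library with most UMIs. Counts were log transformed with scanpy 1.11.5, 2000 variable genes were chosen without the 54 member and pathway genes, and clusters were made with leidenalg 0.10.2 at resolution 1 from 30 principal components and 20 neighbors. Clusters with markers of several classes were split at resolution 0.5, which was decided after the clusters were seen. Classes were named from marker lists when at least 3 markers were raised by a log2 fold above 1.

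Counts were summed per library and class (at least 10 barcodes) and fitted with edgeR 4.0.16 in R 4.3.3 (TMM scaling, filterByExpr, robust quasi-likelihood) over all 4 groups and all genes, with Benjamini-Hochberg adjustment. A call needed an adjusted p under 0.1 with a fold over 1.3, the thresholds of the study's methods. The fit was tested on simulated counts with known changes in MC38 RT against NT. They were drawn with a dispersion of 0.1 for all genes, which was set and not estimated from these data. The changed genes had a mean of at least 10 counts per library. The recoveries hold for that setting, and those of the real genes can be higher or lower. Of 2-fold changes it recovered 24% in macrophage-like and 5% in cDC-like cells, and of 4-fold changes 97% and 68.4%. It made 7 and 6 false calls in that contrast. CPM is UMIs of a gene per 1000000 UMIs of the class in a library, with no correction for gene length. Overlap of libraries between groups is given as a description, with no share over all genes beside it. The shares of barcodes were compared by an exact two-sided permutation test, and intervals and floors (3 counts) cover counting error only.

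The genes named are the 9 members, the up to 3 rises and 3 falls of largest size among called genes of the pathway list in each contrast, and the 3 genes most like each member, of which 1 is not reported here. Members and lists were chosen with earlier results of these data known. Alternatives were counting every copy of a barcode, a filter on cells (500 genes or more and no more than 10% of UMIs mitochondrial), thinning, resolution 2, members kept among the clustering genes, doublets removed (the 5% of barcodes with the highest scores per library), RLE scaling, no filter, only the 2 groups compared, DESeq2 1.42.0, an adjusted p below 0.05, replicate numbers as a block, and each library left out. Chosen after seeing the data were leaving split clusters unnamed, leaving out the fibroblast-marker cluster, and using only the largest macrophage cluster of each tumor by UMIs. Promoter windows were taken from RefSeq tables of GRCm38.p6.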

Additional observations from a re-analysis of the deposited data

Results flagged for a closer look

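In each group of 4 libraries, the highest and lowest library were compared with the rest by the share of the group's range that lay between it and its nearest neighbor, against Dixon's 95% critical value. Of 84 groups of members in all CD45+, macrophage-like, monocyte-like and cDC-like cells, 9 had such a library, and chance alone gives about 1 in 20. The library MC38 NT 1 stood above the others of its group for Mertk, at 52.2 CPM in macrophage-like cells (31.1 to 31.6 CPM in the others) and 43.7 CPM in all CD45+ cells (26.6 to 28.8 CPM). Leaving it out brought the contrast of Mertk between tumors in NT past the threshold.

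Axl in macrophage-like cells was at 469.6 CPM in Panc02-SIY RT 3, against 329.7 to 349 CPM in the others, and at 237 CPM over all CD45+ cells in MC38 RT 2, against 228 to 229 CPM. Gas6 in macrophage-like cells was low in MC38 RT 1, at 13.5 CPM against 28.5 to 30.5 CPM, and over all CD45+ cells it was high in Panc02-SIY NT 3, at 5.16 CPM against 0.769 to 1.49 CPM. MC38 RT 1 also had the highest Tyro3 over all CD45+ cells, at 2.16 CPM against 0 to 0.348 CPM, which in this smallest of libraries rests on few UMIs. Cd36 in macrophage-like cells was at 48.6 CPM in Panc02-SIY NT 1, against 1.44 to 8.71 CPM in the others. That value rested on 12 UMIs, and with clusters at resolution 2 it was 5.13 CPM. Lrp1 in cDC-like cells was at 31.2 CPM in Panc02-SIY RT 3, against 23.3 to 23.9 CPM. None of the 9 libraries concerns Lrp1 or Pros1 in macrophage-like cells.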

How the results depend on the processing

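Of 1105 values of single members under the alternatives, 1027 kept their direction and their side of the threshold, 50 lost a call, 28 gained one and none that was called changed direction. The calls of Lrp1 and Pros1 after radiation in macrophage-like cells held under all 14 alternatives and without any of 8 libraries in each tumor. In macrophage-like cells the number of members called was 2 to 3 in MC38 after radiation and 2 to 3 in Panc02-SIY. Using only the largest macrophage cluster of each tumor, it rose from 5 to 8 between tumors in NT and from 4 to 7 in RT. The share of all genes called in that fit is not given here. Whether this rise is particular to the members can therefore not be told, and its cause was not tested. Without 1 library the counts between tumors were 4 to 6 in NT and 4 to 5 in RT. For the difference of the radiation effects the count was 1 in place of 0 with every copy of a barcode counted, and 0 to 1 without 1 library.

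Over all CD45+ cells, the 2 calls after radiation in MC38 became 0 with every copy counted, with thinning, with no filter and at an adjusted p below 0.05, and 0 to 2 without 1 library. The 3 in Panc02-SIY became 1 with only the 2 groups in the fit, which leaves fewer samples. In cDC-like cells, with no filter the counts were 1 in place of 0 after radiation in MC38, 2 in place of 0 in Panc02-SIY and 3 in place of 1 between tumors in RT. The last was 2 with every copy counted, and 0 to 2 without 1 library. In NT it was 1 in place of 2 with only the 2 groups or at an adjusted p below 0.05, and 1 to 3 without 1 library, and after radiation in Panc02-SIY it was 0 to 1. The mean of Axl in MC38 macrophage-like cells was 257 CPM, and 237 CPM with every copy counted. Of the 36 tests of shares of barcodes, 0 passed with thinning and 15 without it.

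Replicate numbers were not used to pair the libraries in the main fit, although some libraries of the same number were alike. Correlations of same-numbered deviations ran from -0.159 to 0.751 over all CD45+ cells (in Panc02-SIY NT with RT 0.404, -0.159, 0.318 and 0.751). They ran from -0.0317 to 0.389 in macrophage-like and from -0.161 to 0.326 in cDC-like cells. In Panc02-SIY NT with RT, 6 of 8 libraries correlated best with their own number over all CD45+ cells, 6 of 8 in macrophage-like and 4 of 8 in cDC-like cells. In macrophage-like cells this was so for 6 of 8 in MC38 RT with Panc02-SIY RT and 0 of 8 in MC38 NT with RT. What such libraries share was not tested. With the number as a replicate block, the count between tumors in cDC-like RT was 2 in place of 1, the Axl call between tumors in macrophage-like NT was lost (-0.37), Mertk between tumors in macrophage-like cells was called in NT and RT, and no other count moved by more than 1.5 times. Depth limits Tyro3, Mfge8 in Panc02-SIY macrophage-like cells and Gas6 outside macrophage-like cells, each at few CPM, and the cDC-like class of MC38. Gas6 in MC38 macrophage-like cells rested on 327 UMIs in NT and 415 in RT, and there its libraries varied widely within a group.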

Other observations

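The fibroblast-marker cluster of Panc02-SIY was the named class with most Tyro3, and it carried Axl, Lrp1 and Mfge8 as well, although the cells had been sorted as CD45+. In the 2 NT and 2 RT libraries with at least 10 of its barcodes, Tyro3 was at 23.4 to 26.3 CPM, Axl at 262 to 326 CPM, Lrp1 at 285 to 313 CPM and Mfge8 at 35.0 to 71.7 CPM, whereas Mertk was at or below 0.468 CPM. Its barcodes were deep, at a median of 42092 UMIs in NT. At resolution 2, a cluster of 234 Panc02-SIY barcodes had 7 of 7 fibroblast markers and 2 of 6 epithelial or tumor cell markers raised. Whether the fibroblast-marker cells are fibroblasts or tumor cells was not tested.

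Mast cells or basophils of Panc02-SIY held Mfge8 and Pros1 but few UMIs of the other members. Mfge8 was at 10.8 to 80.9 CPM over libraries, with a median of 0 CPM for Axl, Mertk, Tyro3, Gas6, Stab1, Cd36 and Lrp1. Pros1 was at 11.2 to 12.4 CPM in NT, on 4 UMIs, and at 21.6 to 62.9 CPM in RT, on 25 UMIs, which was not tested. In Panc02-SIY cDC-like cells, where Pros1 failed the filter, it was at 3.86 to 8.78 CPM in NT and 7.77 to 25.4 CPM in RT. Its NT and RT libraries overlapped in Panc02-SIY NK cells and neutrophils. In T cells of Panc02-SIY, Pros1 was at 1.07 to 2.196 CPM in NT and 3.81 to 5.78 CPM in RT, with no overlap between the groups, a difference that was not tested. B cells of Panc02-SIY had 0 to 87.4 CPM of Cd36.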
